A study of Mus musculus with 6 samples.

Results

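The 10 genes described here, Klf2, Klf4, Klf5, Esrrb, Tbx3, Tfcp2l1, Nr0b1, Nr5a2, Prdm14 and Zfp42, encode transcription factors of the naive network that LIF, leukaemia inhibitory factor, sustains in mouse embryonic stem cells. They were taken by name, and every feature of the deposited array table annotated to any of them was used. Each has 1 feature, so they are 10 of the 23521 features, standing for 22180 genes, that carry a single gene symbol. The cells were R1, a male embryonic stem cell line from the inner cell mass of a 129X1 x 129S1 embryo, and the labels name no other line. Cells kept for 3 days with 0.74 mM (250 µg/ml) AA2G, a glucoside of ascorbic acid that is stable in medium and from which cells release vitamin C, were set against untreated cells kept without it, with 3 arrays in each group. Both groups grew on 0.1% gelatin in 15% heat-inactivated fetal bovine serum with 100 IU/ml LIF, with no inhibitor of MEK or GSK3 named. The labels call the samples independent replicates, and the p-values given here rest on the spread among those 3 cultures per group. The values are log2 expression values from RMA, which corrects background, brings the arrays to 1 distribution and summarises probes per feature. They compare 1 gene between arrays, not the abundance of different genes, and they cannot tell fewer cells of a type from less RNA per cell.

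Naive pluripotency is the state of the preimplantation epiblast, which embryonic stem cells keep in culture. LIF binds a receptor made of Lifr and gp130, the kinases of the JAK family phosphorylate Stat3, and Stat3 raises transcription of Klf4 and Tfcp2l1. The PI3K branch of the same signal supports Tbx3, ERK signalling acts against Klf2 and other factors, and the repressor Tcf7l1, relieved by Wnt signalling, restrains Esrrb. Several of these factors stand in for each other, so that Klf2, Klf4 and Klf5 must be lowered together before self-renewal is lost.

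None of the 10 factors passed the threshold of a Benjamini-Hochberg adjusted p of 0.05 in limma's moderated test over all 23521 features. Adjusted p ranged from 0.127 to 0.990, and 1 higher factor, Klf2, and 1 lower, Klf4, had a nominal p, before adjustment, under 0.05. Over all features, 0.761% were called, 0.608% higher and 0.153% lower, and 9.71% had a nominal p under 0.05, 4.66% higher and 5.06% lower. Fitted log2 fold changes, AA2G minus untreated, ran from -0.31 for Klf4 to 0.24 for Klf2. The widest reach of any 95% interval was -0.60, a 0.659-fold level with AA2G, for Nr0b1 on the lower side and 0.41, or 1.32-fold, for Klf2 on the upper side. No interval of the 10 reached 1 log2 unit. All 10 features lay above the median of every array, which was between 5.06 and 5.10.

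**Figure D1:**
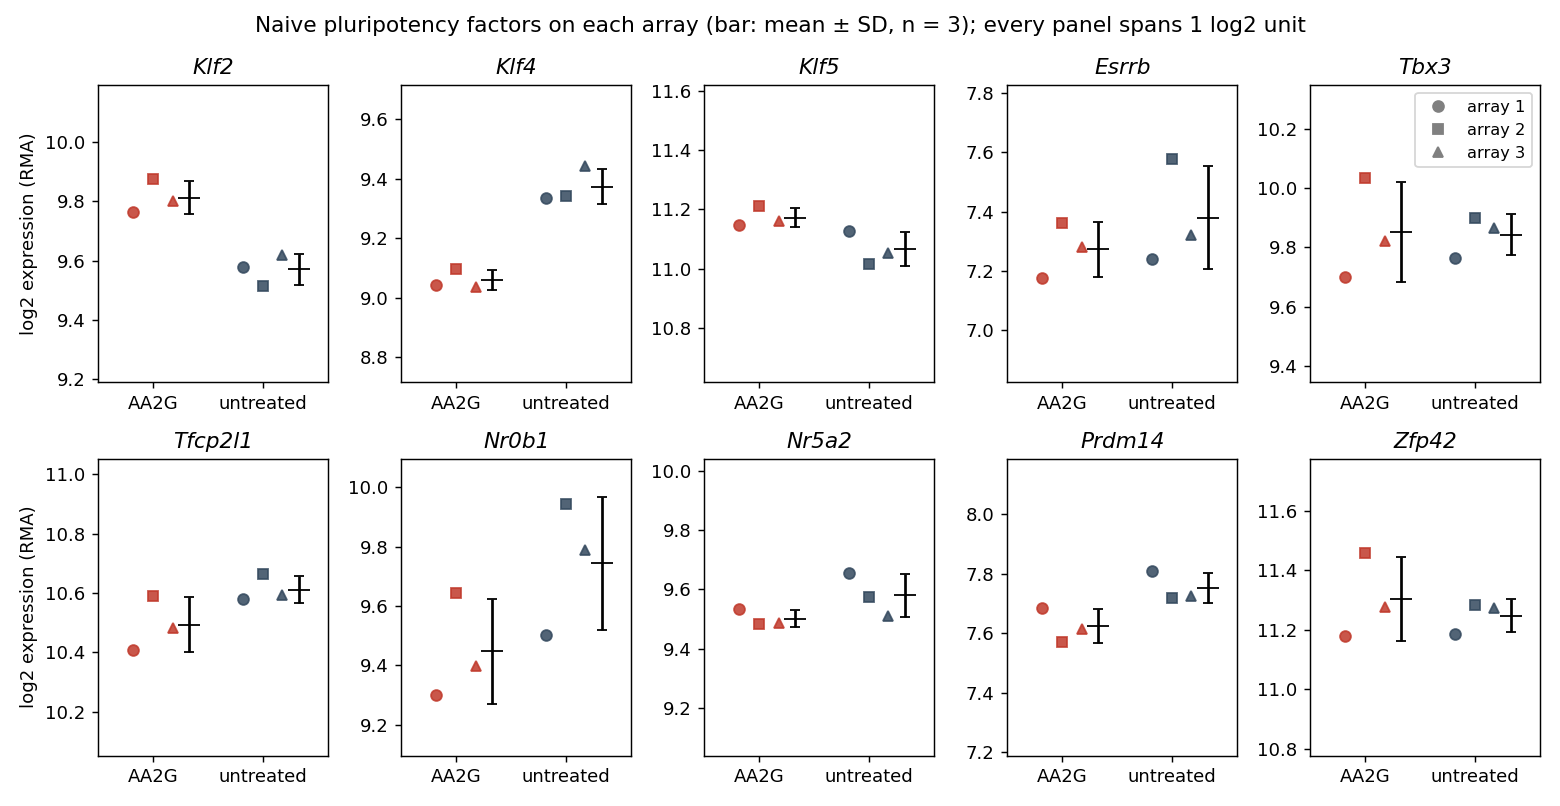
Log2 expression (RMA, vertical axes, each spanning 1 log2 unit) of the 10 factors on the 3 AA2G and 3 untreated arrays. Symbols mark the array numbers of the labels and bars the mean ± SD of 3 arrays. The AA2G arrays lie apart from the untreated arrays for Klf2 and Klf5 above them and for Klf4 and Prdm14 below them.

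**Figure D2:**
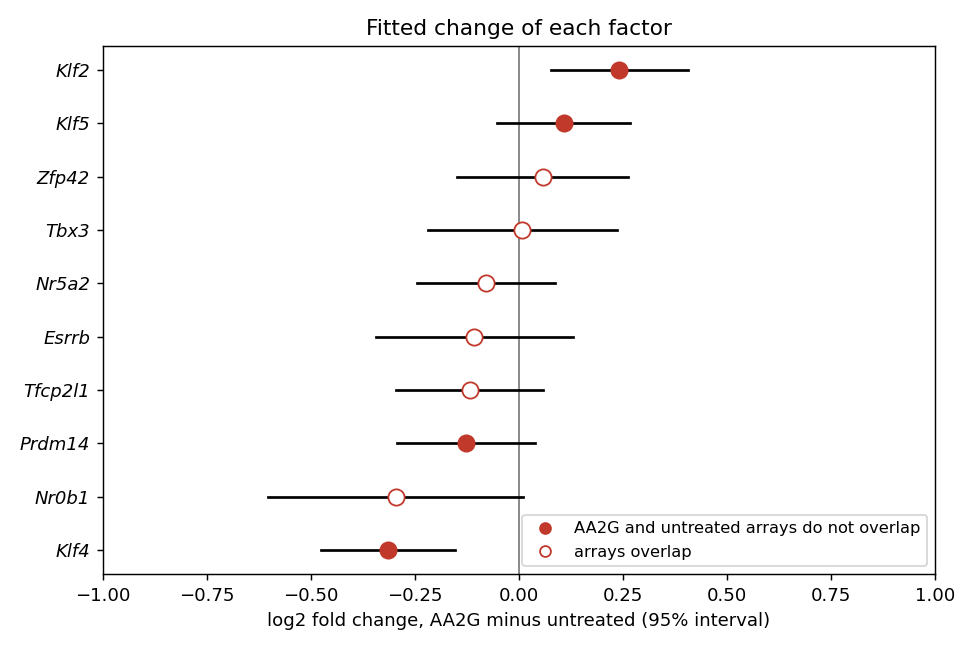
Fitted log2 fold change of each factor, AA2G minus untreated (points), with its 95% interval from limma (lines), ordered by size. The intervals of Klf2 and Klf4 leave out 0, on opposite sides, and filled points mark the 4 factors whose groups do not overlap.

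The Krüppel-like factors Klf2, Klf4 and Klf5 bind GC-rich and CACCC sequences with 3 zinc fingers at their C-terminal end. Klf2 (Entrez Gene 16598), the member most tied to MEK inhibition, was at 9.76, 9.87 and 9.80 on the AA2G arrays, against 9.58, 9.52 and 9.62 on the untreated arrays. Every AA2G array was above every untreated array. The log2 fold change was 0.24 ± 0.07 (SE), which is 1.18-fold with a 95% interval from 1.05 to 1.32 (limma adjusted p = 0.272, unadjusted p = 0.00964).

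Klf4 (16600), a direct target of Stat3 and 1 of the factors used to reprogram somatic cells, was at 9.04, 9.10 and 9.04 with AA2G, against 9.34, 9.34 and 9.44 without it. The groups stood apart in the direction opposite to Klf2. The log2 fold change was -0.31 ± 0.07 (SE), or 0.804-fold with a 95% interval from 0.719 to 0.899 (limma adjusted p = 0.127, unadjusted p = 0.0020). This is the smallest p among the 10 factors. Klf4 passed the threshold with a trended robust variance prior (adjusted p = 0.0348) and with array weights (0.0267), and did not under the other 12 alternatives, so its call depends on the variance model.

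Klf5 (12224), which also acts in the trophectoderm, was at 11.15, 11.21 and 11.16 with AA2G, against 11.13, 11.02 and 11.05 without it. The groups did not overlap, but AA2G array 1 and untreated array 1 differed by 0.02. The log2 fold change was 0.11 ± 0.07, with a 95% interval from -0.05 to 0.27 (limma adjusted p = 0.700).

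Klf2 and Klf4 were also compared within arrays, a comparison chosen after the values were seen and given with no test. Klf2 minus Klf4 was 0.72, 0.78 and 0.76 log2 units on the AA2G arrays, against 0.24, 0.17 and 0.18 on the untreated arrays. The mean of this difference was 0.75 ± 0.03 with AA2G and 0.20 ± 0.04 without it (SD, n = 3 each), a gap of 0.56. It describes unequal change of the pair, and the size of either difference is no ratio of their transcripts.

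The 250 bases before the annotated start are shown for Klf2 and Klf4, the pair that differed in direction, and for Zfp42, the classical naive marker, whose groups overlapped. They are from RefSeq on GRCm38.p6, 5′ to 3′ on the strand of the gene: Klf2 at chr8:72318812-72319061 on the plus strand, Klf4 at chr4:55532476-55532725 on the minus strand and Zfp42 at chr8:43307010-43307259 on the minus strand. Capitals mark GGGCGG, a GC box that Sp and Krüppel-like proteins bind, and ATTTGCA, from the octamer element that Oct4 binds, on either strand.
Klf2: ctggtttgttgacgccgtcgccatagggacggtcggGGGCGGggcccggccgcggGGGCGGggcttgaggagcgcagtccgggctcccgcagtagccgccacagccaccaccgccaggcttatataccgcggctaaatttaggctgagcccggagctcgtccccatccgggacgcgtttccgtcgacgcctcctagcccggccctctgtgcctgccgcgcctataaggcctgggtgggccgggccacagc
Klf4: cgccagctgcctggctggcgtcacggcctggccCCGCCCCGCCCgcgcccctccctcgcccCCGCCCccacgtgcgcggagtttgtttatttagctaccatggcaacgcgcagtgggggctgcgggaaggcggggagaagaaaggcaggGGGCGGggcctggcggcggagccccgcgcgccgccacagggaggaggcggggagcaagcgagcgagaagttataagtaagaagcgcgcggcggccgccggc
Zfp42: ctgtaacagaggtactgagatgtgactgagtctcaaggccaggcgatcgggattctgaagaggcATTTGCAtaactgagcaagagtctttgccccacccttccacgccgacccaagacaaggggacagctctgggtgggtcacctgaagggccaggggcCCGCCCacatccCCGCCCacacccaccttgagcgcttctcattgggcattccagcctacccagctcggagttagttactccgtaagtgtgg

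No link between these windows and the fitted changes was tested. The windows of Klf2 and Klf4 are alike in base composition. They hold 29 and 32 CpG dinucleotides, more than 93.2% and 95.4% of 32851 promoter windows of the same length, whose median is 6. Klf4 has 4 matches of GGGCGG, a pair of them sharing a base, Klf2 has 2 and Zfp42 has 2, and 32.7% of all windows hold the motif. ATTTGCA was found in 1 of the 9 windows of the 7 factors with an entry, that of Zfp42, against 3.56% of all windows. CACCC was found in 6 of the 9 windows (52.0% of all), TTCNNNGAA, the form of a STAT site, in 1, upstream of Esrrb (7.02%), and AAGGTCA, a core that Esrrb and Nr5a2 proteins bind, in 0 (4.08%). Matches of different motifs did not overlap in these windows. The CpG counts of the other windows ran lower, at 16 for Tfcp2l1, 11 for Nr0b1, 9 for Zfp42, 6 and 3 for the starts of Esrrb and 6 and 2 for those of Nr5a2.

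Tfcp2l1 and Tbx3 lie closest to LIF among the remaining factors. Tfcp2l1 (81879), a Grainyhead-like factor and target of Stat3, was at 10.41, 10.59 and 10.48 with AA2G, against 10.58, 10.66 and 10.59 without it. AA2G array 2 lay just above untreated array 1, so the groups overlapped. The log2 fold change was -0.12 ± 0.08 (95% interval -0.30 to 0.06, limma adjusted p = 0.697).

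Tbx3 (21386), a T-box factor supported by the PI3K branch of LIF signalling, was at 9.70, 10.03 and 9.82 with AA2G, against 9.77, 9.90 and 9.86 without it. The untreated arrays lay inside the range of the AA2G arrays. The log2 fold change was 0.01 ± 0.10 (95% interval -0.22 to 0.23, limma adjusted p = 0.990), and its sign turned under 3 of 14 alternatives.

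The nuclear receptors Esrrb, Nr5a2 and Nr0b1 all had fitted values below 0, and their groups overlapped. Esrrb (26380), an orphan receptor restrained by Tcf7l1, was at 7.18, 7.36 and 7.28 with AA2G, against 7.24, 7.58 and 7.32 without it, a log2 fold change of -0.11 ± 0.10 (95% interval -0.34 to 0.13, limma adjusted p = 0.818). Nr5a2 (26424), which binds the regulatory region of the Oct4 gene, was at 9.53, 9.48 and 9.49 with AA2G, against 9.65, 9.57 and 9.51 without it, a log2 fold change of -0.08 ± 0.07 (95% interval -0.24 to 0.09, limma adjusted p = 0.799). For Nr5a2 the overlap came from 1 untreated array, number 3, which lay below the highest AA2G array.

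Nr0b1 (11614), known as Dax1, is an X-linked receptor without the usual DNA-binding domain that acts as a co-repressor. It was at 9.30, 9.64 and 9.40 with AA2G, against 9.50, 9.94 and 9.79 without it. Its fitted change of -0.30 ± 0.13 was the next largest after that of Klf4 among the 10, but its arrays overlapped and its spread within groups was the widest of the 10, with a pooled SD of 0.202 against 0.0480 for Klf4. The 95% interval ran from -0.60 to 0.01 (limma adjusted p = 0.526).

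Prdm14 and Zfp42 differed from each other in how tightly their arrays lay. Prdm14 (383491), a PR-domain protein that holds down FGF signalling and the de novo DNA methyltransferases and is required for primordial germ cells, was at 7.69, 7.57 and 7.61 with AA2G, against 7.81, 7.72 and 7.72 without it. All AA2G arrays were below all untreated arrays, by a log2 fold change of -0.13 ± 0.07 (95% interval -0.29 to 0.04, limma adjusted p = 0.647). Zfp42 (22702), the zinc finger protein Rex1 used as a reporter of the naive state, was at 11.18, 11.46 and 11.28 with AA2G, against 11.18, 11.28 and 11.27 without it. The log2 fold change was 0.06 ± 0.09 (95% interval -0.15 to 0.26, limma adjusted p = 0.899), and without AA2G replicate 2 it was -0.0195.

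For 4 of the 10 factors the groups did not overlap, 2 with AA2G higher (Klf2 and Klf5) and 2 with AA2G lower (Klf4 and Prdm14). Over all features 15.7% did not overlap, 7.21% with AA2G higher and 8.48% with AA2G lower. The median log2 fold change of the 10 was -0.09, with 6 values below 0, and that of all tested features was -0.01, with 52.3% below 0. The members were chosen with earlier results of these data known, so these counts are a description.

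The arrays within a group spread in a shared pattern for Esrrb, Tbx3, Tfcp2l1, Nr0b1 and Zfp42. For each of these 5, array 1 was the lowest and array 2 the highest in both the AA2G and the untreated group, an order seen in 8.47% of all features. Prdm14 had the reverse order in both groups, seen in 7.72% of all features, and in Klf2, Klf4, Klf5 and Nr5a2 the order differed between the groups. Any shared order of the 3 numbers was found in 25.3% of all features. The orders named here were picked after the values of the factors were seen, so these counts are a description. The pooled SD within groups was from 0.0724 to 0.202 log2 units for the 5 factors and from 0.0464 to 0.0549 for the other 5, against a median of 0.115 over all features. The factors whose groups stood apart are all among the 5 with the smaller pooled SD. Groups come apart more easily where the spread is small, so this is no separate observation. The labels say nothing of what the array numbers share, and the cause of the pattern was not tested.

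**Figure D3:**
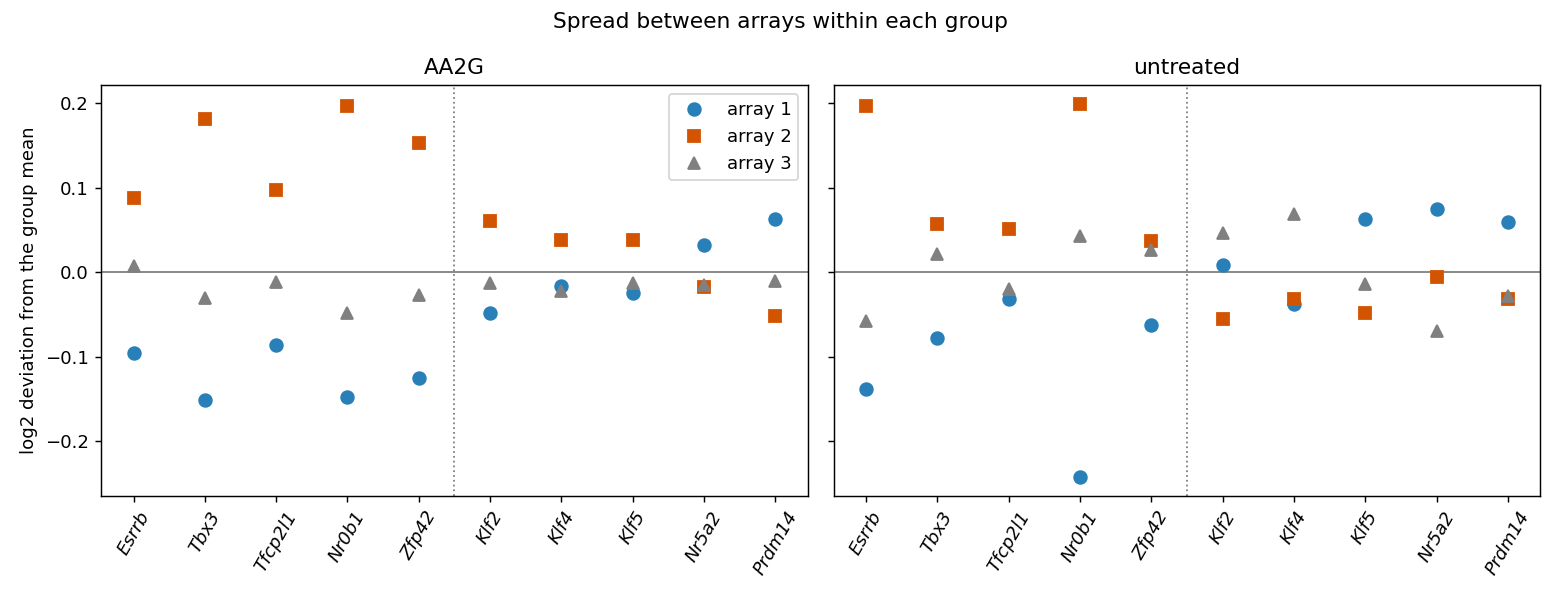
Deviation of each array from the mean of its group (log2, vertical axis) for the 10 factors, AA2G arrays left and untreated arrays right. Left of the dotted line are the 5 factors for which array 1 is lowest and array 2 highest in both groups. By the SD pooled over both groups the other 5 are tighter, although among the untreated arrays alone the 2 sets overlap in spread.

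Genes of the LIF pathway were examined beside the factors, from a list drawn up for this comparison. Of 16 measured members, 0 passed in limma, and the median log2 fold change was 0.01. By nominal p under 0.05, 1 was higher and 1 lower, among all features 4.66% and 5.06%. Socs3, the feedback inhibitor that Stat3 induces, was at 8.58, 8.40 and 8.50 with AA2G, against 8.37, 8.00 and 8.17 without it. All AA2G arrays were above all untreated arrays, with a log2 fold change of 0.32 ± 0.11 (limma adjusted p = 0.343), and its second feature was at 0.55 ± 0.13 (0.163). Socs3 and Klf4, both known targets of Stat3, had fitted values of opposite sign, and neither passed. Tfcp2l1, the other Stat3 target among the factors, was at -0.12. Whether Stat3 signalling changed was not tested. The lowest fitted value of the list was that of Myc, picked after its values were seen. It was at -0.51 ± 0.28 (limma adjusted p = 0.645), and its groups overlapped. Pias3, an inhibitor of Stat3, was at -0.27 ± 0.09 (adjusted p = 0.308) and the phosphatase gene Ptpn11 at -0.18 ± 0.09 (0.607).

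The 20 other naive state genes were listed with earlier results of these data known, so their counts are a description. Of them, 2 rose, 0 fell and 18 did not pass, against 0.608% of all features called higher and 0.153% lower. The median of the 20 was -0.09, with 16 values below 0, against 52.3% of all features below 0. By nominal p under 0.05, 3 were higher and 5 lower, among all features 4.66% and 5.06%. The 5 lower ones were Jam2, Nanog, Pou5f1 and, named after their values were seen, the imprinting factor gene Zfp57 at -0.26 ± 0.09 (limma adjusted p = 0.354) and the growth factor gene Gdf3 at -0.20 ± 0.09 (0.486). Morc1, best known for silencing transposons in the male germ line, rose by 1.93 ± 0.10 on the log2 scale (limma adjusted p = 0.000210). It was at 9.13, 9.15 and 9.16 with AA2G, against 7.31, 7.01 and 7.33 without it, so its groups lay far apart. Fbxo15, a target of Oct4 that is dispensable for self-renewal, was at 9.64, 9.66 and 9.63 with AA2G, against 9.03, 8.97 and 9.05 without it, a rise of 0.63 ± 0.07 (limma adjusted p = 0.00625). Jam2, an adhesion gene, was at -0.38 ± 0.09 (adjusted p = 0.138).

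Among 15 measured genes known to act on exit from the naive state, 0 passed in limma and 0 had a nominal p under 0.05, and the median was -0.02. Tfe3, whose entry into the nucleus keeps cells naive, was at -0.13 ± 0.07, Zfp281 at 0.10 ± 0.08 and Foxd3 at -0.17 ± 0.12. Of 17 genes of the primed epiblast, the state that follows, 0 passed, and the median was -0.12. By nominal p under 0.05, 1 was higher and 5 were lower, among all features 4.66% and 5.06%. Lefty1 was at -0.72 ± 0.13 (limma adjusted p = 0.0577), Nodal at -0.36 ± 0.07 (0.0823) and the keratin gene Krt18 at -0.43 ± 0.10 (0.126), with its second feature at 0.12. Other primed genes, named after their values were seen, lay above 0. Car12 was at 0.37 ± 0.16 (limma adjusted p = 0.503), Dnmt3b at 0.35 ± 0.15 (0.515) and Otx2 at 0.23 ± 0.13 (0.662). Of the 17 values, 11 were below 0 and 6 above.

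Paralogues of the 10 factors, and a few of their partners, were given the same test. Among all features, 4.66% were higher and 5.06% lower by nominal p under 0.05, and 52.3% had values below 0. Of 18 Krüppel-like and Sp genes 0 passed, with 1 higher by nominal p under 0.05 and a median of -0.03. That gene was Klf17, at 0.25 ± 0.08 (limma adjusted p = 0.284), and Klf3 was at -0.22 ± 0.10 and Klf16 at -0.18 ± 0.10. Of 16 measured genes for nuclear receptors and the co-activator Ncoa3, 0 passed, 1 was lower by nominal p under 0.05 and 13 values were below 0, with a median of -0.08. Nr2c1 was at -0.25 ± 0.07 (adjusted p = 0.244), Ncoa3, which works with Esrrb, at -0.12 ± 0.08 and Rxra at -0.15 ± 0.09. The list of 20 T-box, Grainyhead-like, PR-domain and YY1 relatives also holds Cbfa2t2 and Cbfa2t3, which are of none of these families. Of these 20, 0 passed and 1 was lower by nominal p under 0.05, with a median of -0.04. Tbx1 was at -0.31 ± 0.08 (adjusted p = 0.161), Cbfa2t2, the partner that Prdm14 needs, at -0.15 ± 0.07 (0.515) and Grhl1 at -0.17 ± 0.10.

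**Figure D4:**
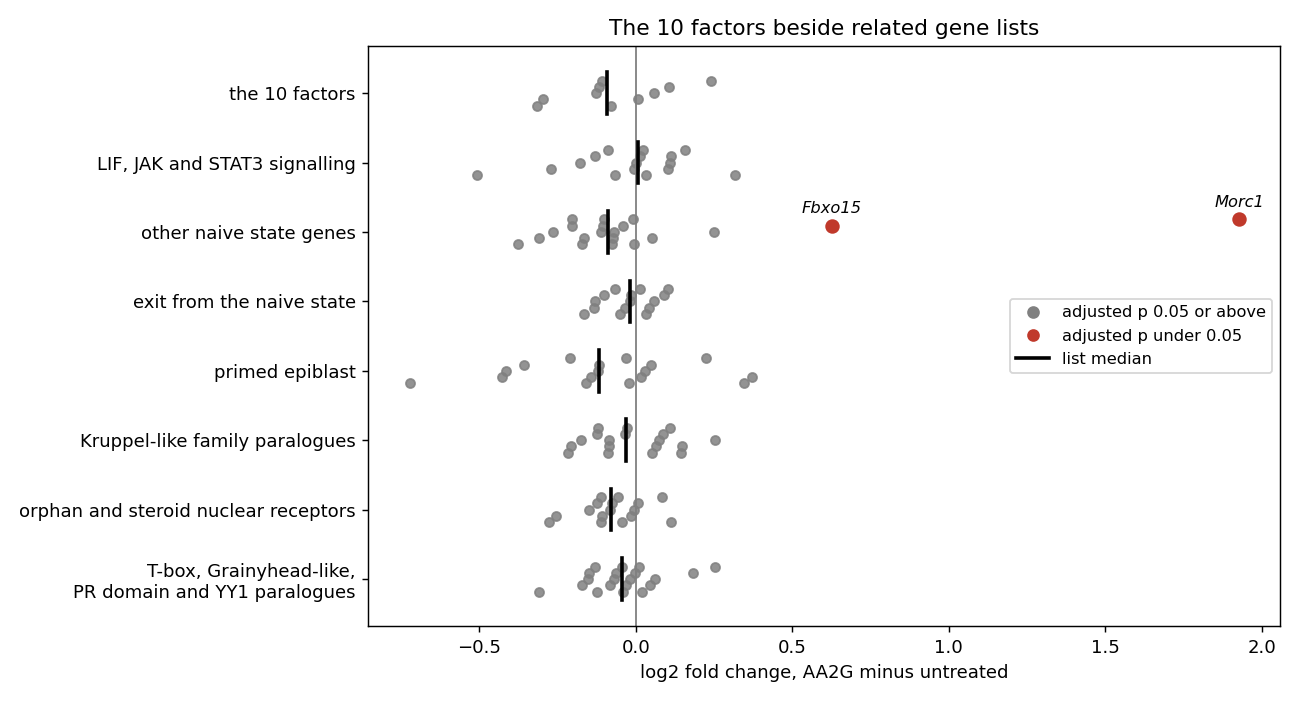
Log2 fold change, AA2G minus untreated, of the 10 factors and of the genes of 7 related lists (1 point a gene, its brightest feature; black bars are list medians). Red points mark the genes past an adjusted p of 0.05, Morc1 and Fbxo15, and no factor is among them.

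The genes whose profile over the 6 arrays was most like that of Klf4 were found by the root mean square difference between log2 profiles, each centred on its own mean. The 5 closest were Tbx1, with a difference of 0.026, the ligand gene Nodal (0.029), the adaptor gene Dok1 (0.039), the RNA-binding protein gene Rbms1 (0.040) and the polycystin gene Pkd1 (0.041). Their log2 fold changes were -0.31, -0.36, -0.24, -0.27 and -0.31, and none passed. With 6 arrays and this many features such likeness arises readily, so the names are a description.

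Markers of embryonic stem cells were checked against the label. Of 8 measured, 0 passed, and all 8 had values below 0, with a median of -0.10, 2 of them lower by nominal p under 0.05. Among all features 52.3% had values below 0, and by nominal p under 0.05 4.66% were higher and 5.06% lower. Nanog, Pou5f1, Sox2, Sall4, Dppa4 and Dppa5a are also among the other naive state genes, so the 2 lists are not separate evidence. Nanog was at 11.2 ± 0.04 with AA2G and 11.3 ± 0.03 without it (SD, n = 3 each), and Pou5f1, which encodes Oct4, at 7.47 ± 0.01 and 7.64 ± 0.02. Sall4 was at -0.11 ± 0.08 on the log2 scale (SE). Dppa5a, picked after its values were seen, was near the array median in both groups, at 5.08 ± 0.10 with AA2G and 5.15 ± 0.09 without it. Of 34 measured markers of primitive endoderm, trophoblast, fibroblast feeders, mesoderm and neuroectoderm, 0 passed. By nominal p under 0.05 0 were higher and 3 lower, Sox7 at -0.20, Dcn at -0.27 and Sox1 at -0.19. Summed on the linear scale over the same features, the primitive endoderm markers ranged from 372 to 385 on the AA2G arrays and from 368 to 403 on the untreated arrays. The trophoblast markers ran from 529 to 578 with AA2G and from 496 to 586 without it, so the groups overlapped for both. The embryonic stem cell markers, summed likewise, did not overlap, at 9439 to 9575 with AA2G and 9876 to 10475 without it. This sum rests mostly on the brightest features, Utf1, Nanog and Sox2, and does not weigh the 8 markers equally. Taken singly, 2 of the 8, Nanog and Pou5f1, had groups that did not overlap. How often such sums separate among other genes was not tested. Mean levels of the primitive endoderm markers were near the array median, at 5.44 to 5.51 with AA2G and 5.46 to 5.58 without it. Of these markers, Gata6 and Sox7 had every AA2G array below every untreated array, as 8.48% of all features did. Tfap2c, at 7.83 and 7.81, was the brightest trophoblast marker. The overlaps of the sums therefore cannot show that such cells were absent or constant. Klf5, Esrrb, Tbx3 and Nr5a2 are also used by trophoblast or primitive endoderm, whose lists had medians of 0.06 and 0.02.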

How the data were processed

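The authors deposited 1 table of log2 values for 6 Mouse Gene 2.0 ST arrays, for which the submitters' processing notes name RMA and Affymetrix Expression Console; no source used here gives versions, annotation release or filters. Arrays have no read depth, so precision is set by having 3 arrays per group. Of 41345 features, the platform annotation gives 23521 a single symbol, 1814 several and 16010 none listed. On the 23521, lmFit and eBayes of limma 3.58.1 were run under R 4.3.3, two-sided and without covariate, with Benjamini-Hochberg adjustment over all of them and a threshold of 0.05. Fold changes are AA2G minus untreated, with fitted standard errors and 95% intervals that are not adjusted for the number of genes. Exact permutation over 3 arrays per group could not go below p = 0.1 and was not used. The procedure was tested on simulated data, with changes added to features drawn at random. It recovered 0.227% of changes of 0.25 log2 units, 33.1% of those of 0.5 and 83.4% of those of 1. A factor with a change of the size fitted here could thus have gone without a call. The 10 factors and the gene lists were chosen with earlier results of these data known. Named are the 10 factors, the called genes and up to 3 genes with the smallest unadjusted p of each list. Also named are the 5 features nearest to Klf4, brighter than the percentile 40 of mean level. From the marker lists of the 5 other cell types only some of the genes so defined are given, and Tfap2c is outside this rule. Where a gene has several features, list counts use the brightest. Motifs were searched in 250 bases before RefSeq starts of GRCm38.p6; gene coordinates were not used, since no source used here names the build of the array.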

Additional observations from a re-analysis of the deposited data

How the results depend on the processing

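None of the 10 factors passed in the analysis as reported, and 0 passed under 12 of 14 alternatives; 1 passed, Klf4, under the trended robust prior and likewise under array weights. Its adjusted p ran from 0.0267 to 0.403 over the 14. The value of Klf4 stayed between -0.36 and -0.28 and that of Klf2 between 0.21 and 0.27. Signs turned, with neither value past the threshold, for Tbx3 (-0.0181), Tubb3 (-0.0300) and Neurog2 (0.0486) with array weights. With each array left out in turn, Tbx3 ran from -0.0830 to 0.0834, negative without AA2G replicate 2 (-0.0830) and without untreated replicate 1 (-0.0312), and Zfp42 from -0.0195, without AA2G replicate 2, to 0.120. In the same fits the neuroectoderm genes Tubb3 and Neurog2 ran from -0.0170 to 0.171 and from -0.163 to 0.0267, and the mesoderm gene Msgn1 from -0.0599 to 0.184. Over all features, 143 were called higher and 36 lower. The counts were 198 and 79 under the trended robust prior, 303 and 193 under array weights, 165 and 86 with brighter features only, and 111 and 20 with all features of the table, where more features share the adjustment. They were 147 and 34 with quantile normalization repeated and 142 and 37 with arrays shifted to 1 median. With each array left out in turn they ran from 58 to 115 higher and from 6 to 17 lower, below the reported counts in each of the 6 fits and lowest without untreated replicate 3, with fewer samples in each fit; 0 factors passed in these fits. The array numbers were not taken to pair the samples: deviations from the group means correlated at r = 0.23, 0.22 and 0.02 for the numbers 1, 2 and 3, across features, although every array correlated best with its own number. With the replicate block 130 features were called higher and 25 lower, and 0 factors passed; Nr0b1 was at -0.30 ± 0.07 (adjusted p = 0.200). Lefty1 and Nodal passed as lower with the trended robust prior (0.0232 and 0.0383), array weights (0.0139 and 0.0174) and brighter features only (0.0341 and 0.0346). Lefty1 also passed without untreated replicate 2 (-0.84, 0.0449), Jam2 as lower with the trended prior (0.0433), and with array weights Krt18 (0.0331), Tbx1 (0.0377), Rbms1 (0.0485) and Pkd1 (0.0341) as lower.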
